A study of Mus musculus with 10 samples.

Results

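The genes described here are core components of the canonical Wnt pathway in mouse regulatory T (Treg) cells: beta-catenin (Ctnnb1), the parts of its destruction complex (Axin1, Axin2, Apc, Gsk3a, Gsk3b, Csnk1a1), the TCF family factors Tcf7 and Lef1, and the coactivator Bcl9. They were chosen for their place in the pathway, with earlier results of these data known. A gene was measured where a probe set of the array named it alone, and 8 of the 10 were, among 22180 genes in all. Tcf7 was not named by a probe set in the annotation used, and the only probe set naming Gsk3a carried several names, so both were not analysed here. Axin2 had 2 probe sets and was represented by the one with the higher mean over all arrays.

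Treg cells, the CD4 T cells marked by Foxp3, hold back immune responses. They were sorted, without culture, from mixed bone marrow chimeras, mice rebuilt with bone marrow of more than 1 donor genotype. There were 5 wild-type (WT) samples and 5 samples with Stk11 deletion, called LKB1-deficient, each on its own array. Stk11 encodes the protein kinase LKB1. The labels give no ages, no second donor of each chimera, no driver of the deletion and no number of animals behind a sample. The p-values therefore cover the spread among the samples alone, and that spread may be technical.

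In the canonical Wnt pathway, a complex built on Axin and APC holds beta-catenin while casein kinase 1 alpha and GSK-3 phosphorylate it, and the marked protein is destroyed. A Wnt signal at the cell surface stops this, and beta-catenin enters the nucleus, where it binds TCF and LEF factors and recruits BCL9 to activate target genes, among them Axin2, which feeds back on the signal. In T cells, TCF-1 (encoded by Tcf7) and LEF-1 are known for their part in thymic development and in naive and memory cells. Since beta-catenin is controlled largely by protein breakdown, transcript levels do not measure its activity. The study dealt with beta-catenin in LKB1-deficient Treg cells, and the comparison here asks whether transcripts of the pathway's core differed between the groups.

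Lef1 had the largest difference of the measured core genes, and its promoter windows are described for that reason. RefSeq (GRCm38.p6) gave 4 Lef1 windows of 300 bases, each from 250 bases before to 50 after a transcript start. The letters CTTTGA, a core of the site that TCF and LEF factors bind, or their reverse complement TCAAAG, were in 1 of these 4, with 2 matches. They are in capitals in that window, at chr3:131156044-131156343 on the plus strand.
Lef1: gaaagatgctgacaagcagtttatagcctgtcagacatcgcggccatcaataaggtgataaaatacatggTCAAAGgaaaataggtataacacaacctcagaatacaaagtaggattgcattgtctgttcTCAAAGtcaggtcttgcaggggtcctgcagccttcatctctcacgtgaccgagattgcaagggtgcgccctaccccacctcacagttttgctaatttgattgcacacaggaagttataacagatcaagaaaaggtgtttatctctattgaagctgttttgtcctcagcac
Of all 32851 windows of this length, 16.0% held the letters, so a match is common and describes only the sequence. Of the 12 windows of the 7 listed genes found in the table (Axin1, Apc and Csnk1a1 had no entry), 3 held them, the other two belonging to Gsk3a and Gsk3b. The Lef1 probe set gave 1 value for the gene, and transcripts from the 4 starts were not told apart.

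None of the 8 measured core genes passed the test between LKB1-deficient and WT Treg cells. In the limma fit over all genes with Benjamini-Hochberg adjustment, 0 were higher and 0 lower at an adjusted p under 0.05, where 1.06% of all genes were called (0.234% higher and 0.830% lower). At an unadjusted p under 0.05 there was 1 of the 8, Lef1, against 14.0% of all genes. The groups overlapped for all 8, while 4.71% of all genes had groups that did not overlap. Differences in log2 signal, always given as LKB1-deficient minus WT, were positive for 4 and negative for 4, where 50.8% of all genes had a positive one. Their median was -0.0060 against 0.0034 over all genes. The 95% confidence intervals of the 8 differences reached from -0.46 to 0.46, so that changes of more than 1.37-fold down or 1.38-fold up lay outside all of them. This covers each gene's own interval, with no correction for the number of genes.

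**Figure D1:**
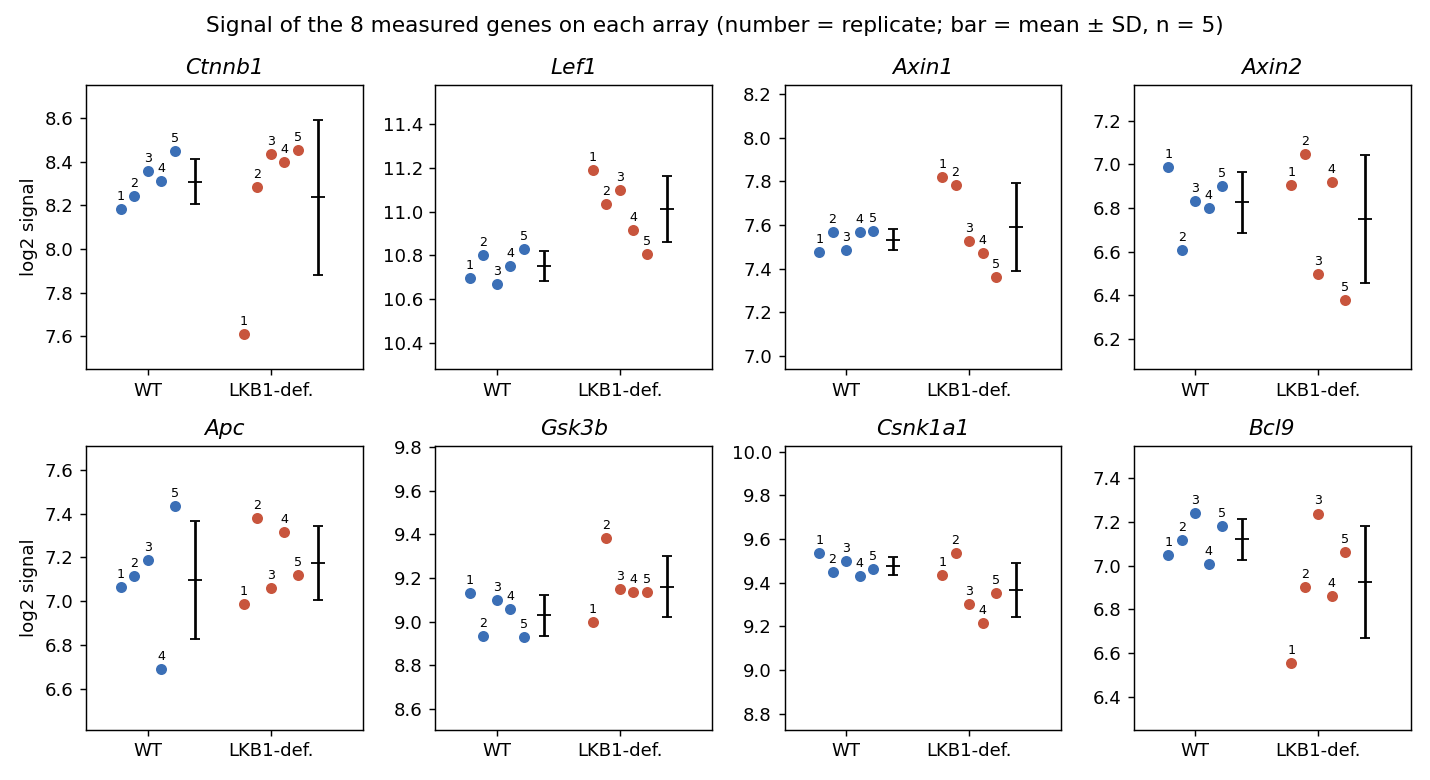
Log2 signal of the 8 measured core genes on each of the 10 arrays (points, numbered by replicate; bars, mean ± SD of 5 arrays), every panel spanning the same height. The groups overlap in all panels; LKB1-deficient array 1 stands below the other 9 arrays for Ctnnb1 at 7.61, and 4 LKB1-deficient arrays lie above all WT arrays for Lef1.

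Before the single genes, the samples need a description. WT samples had a Stk11 signal of 6.78 ± 0.15 (SD, n = 5), and LKB1-deficient samples one of 6.42 ± 0.37 (SD, n = 5). The difference of -0.36 did not pass (adjusted p = 0.335), and 3 LKB1-deficient arrays were below all WT arrays. Without LKB1-deficient arrays 1, 4 and 5, described below, the Stk11 difference was -0.75 (adjusted p = 0.0178), and with macrophage and B cell marker means as covariates -0.77 (0.0108). Those 3 arrays had the highest Stk11 values of the group, and a larger decrease had to follow from their removal. The exons covered by this probe set are not known here, and all values refer to the arrays labelled LKB1-deficient. The mean of 9 Treg markers, Foxp3 among them, was 10.57 to 10.63 on WT arrays, 9.80 on LKB1-deficient array 1 and 10.46 to 10.83 on the other 4. The mean of 15 monocyte, macrophage and dendritic markers was 6.50 to 6.91 on WT arrays, 9.15 and 9.33 on arrays 4 and 5 of the LKB1-deficient group, and 6.67 to 7.20 on its other 3, with 15 of 15 estimates positive and 0 called. In the limma fit 7 of them had an unadjusted p under 0.05, or 46.7% against 14.0% of all genes. The mean of 11 B and plasma cell markers was 5.15 to 5.55 on WT arrays and reached 6.62, 6.12 and 6.27 on LKB1-deficient arrays 1, 4 and 5. The naive conventional CD4 T cell mean was 9.74 on LKB1-deficient array 1, 9.09 to 9.22 on the other 4 and 9.03 to 9.17 in WT. The mean of 9 NK cell markers was 4.34 to 4.57 in WT, and LKB1-deficient arrays 1 to 5 had 5.57, 4.48, 4.80, 5.02 and 5.26. That of 8 neutrophil markers was 4.59 to 4.90 in WT and highest on LKB1-deficient array 1 at 6.10, and that of 4 erythroid and platelet markers was 5.43 to 5.68 in WT and highest on arrays 4 and 5 at 6.79 and 6.66. Among all marker genes other than Cd8a, 2 were called, each with groups that did not overlap. Izumo1r of the Treg list was lower (-0.70, adjusted p = 0.0209), and Klrd1 of the NK list was higher (1.53, adjusted p = 0.0170). LKB1-deficient arrays 1, 4 and 5 thus stood apart from the rest. Without them Izumo1r was at -0.47 (adjusted p = 0.0545) and Klrd1 at 1.04 (adjusted p = 0.0558). They had the lowest Izumo1r values of the group, so its decrease had to shrink. The core genes are given with and without these arrays. So are Stk11 and the named genes of the lists where the call or sign changed or the value moved by over 1.5 times. In bulk samples, fewer cells of a type and less RNA per cell cannot be told apart. The array medians were 4.83 to 4.86 in WT and 4.88 to 4.94 in LKB1-deficient samples. The lowest value of any core gene, by the probe set that represented it, was 6.38.

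Ctnnb1 transcript, which encodes beta-catenin itself, was at similar levels in the groups apart from 1 array. Its log2 signal (probe set 17523257) was 8.18, 8.24, 8.36, 8.31 and 8.45 on WT arrays 1 to 5. On LKB1-deficient arrays 1 to 5 it was 7.61, 8.28, 8.44, 8.40 and 8.46. Array 1 was far below all others, array 5 was just above the highest WT array, and the other 3 lay within the WT range. The means were 8.31 ± 0.10 (SD, n = 5) and 8.24 ± 0.36 (SD, n = 5), and the difference was -0.071 (SE 0.15, 95% confidence interval -0.40 to 0.26, adjusted p = 0.884). Without LKB1-deficient array 1 the sign turned, to 0.085 (adjusted p = 0.702). Array 1 was the lowest of its group, so leaving it out had to raise the difference. It was also the array with the lowest Treg marker mean, and the part of that in the Ctnnb1 value was not tested. Without arrays 1, 4 and 5 the difference was 0.053 (adjusted p = 0.891).

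Of the scaffolds of the destruction complex, Axin1 did not differ in level past the test. Its SD was larger among LKB1-deficient samples than in WT, as it was for 68.8% of all genes, and the spread was not tested. Axin1, which holds the kinases and beta-catenin together, was at 7.48, 7.57, 7.48, 7.57 and 7.57 on WT arrays 1 to 5. Its LKB1-deficient values were 7.82, 7.78, 7.53, 7.47 and 7.36. Arrays 1 and 2 were above the narrow WT range, arrays 4 and 5 were below it, and array 3 was inside. The SD was 0.049 in WT and 0.20 in LKB1-deficient samples, and the difference in means was 0.059 (SE 0.10, adjusted p = 0.847). Replicates 1 to 3 and replicates 4 and 5 of both groups carry separate runs of sample codes in the labels, called set 1 and set 2 here; the labels do not explain the codes. Axin1 was at 0.20 within set 1 and -0.15 within set 2, neither past the threshold (adjusted p = 0.645 and 0.701). Without arrays 1, 4 and 5 of the LKB1-deficient group it was at 0.12 (adjusted p = 0.694).

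Axin2, a scaffold that is itself a target of the pathway and a common readout of its activity, did not differ in level past the test, and its SD was 0.14 in WT and 0.29 in LKB1-deficient samples. It was at 6.99, 6.61, 6.83, 6.80 and 6.90 on WT arrays 1 to 5 (probe set 17271197). LKB1-deficient arrays had 6.91, 7.05, 6.50, 6.92 and 6.38. Array 2 was above all WT arrays and arrays 3 and 5 were below them, so that the group straddled the WT range. The difference was -0.075 (SE 0.14, 95% confidence interval -0.37 to 0.22, adjusted p = 0.857), and -0.053 (adjusted p = 0.929) without arrays 1, 4 and 5. The second Axin2 probe set (17257801) was at 6.46 to 6.69 in WT and 6.19 to 6.603 in LKB1-deficient samples, a difference of -0.18 (SE 0.095, adjusted p = 0.529 over all probe sets). By this probe set LKB1-deficient arrays 1 to 4 were below all WT arrays, and array 5 was within their range. The probe sets disagreed on array 5, which was the lowest of the LKB1-deficient arrays by the first at 6.38 and the highest by the second at 6.603. A rise of Axin2 transcript past 1.17-fold lay outside the interval of the first probe set.

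Apc, the large scaffold that works beside Axin, had wide overlap. It was at 7.07, 7.11, 7.19, 6.69 and 7.44 on WT arrays 1 to 5, and at 6.99, 7.38, 7.06, 7.32 and 7.12 on LKB1-deficient arrays. All 5 LKB1-deficient values lay within the WT range, and Apc was the only one of the 8 genes whose SD was larger in WT (0.27 against 0.17). The difference was 0.074 (SE 0.13, adjusted p = 0.856), and it turned to -0.028 without WT array 4, the lowest. With LKB1-deficient arrays 1, 4 and 5 left out it was 0.12 (adjusted p = 0.831).

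The kinases of the complex also did not pass. Gsk3b, which phosphorylates beta-catenin and marks it for breakdown, was at 9.13, 8.93, 9.10, 9.06 and 8.93 on WT arrays. It was at 8.999, 9.38, 9.15, 9.13 and 9.13 on LKB1-deficient arrays. Arrays 2 to 5 were above all WT arrays, 3 of these narrowly, and array 1 was within the WT range. The difference was 0.13 (SE 0.093, 95% confidence interval -0.071 to 0.33, adjusted p = 0.579), with 0.12 in set 1 and 0.14 in set 2. With arrays 1, 4 and 5 of the LKB1-deficient group left out, the estimate became 0.24 (adjusted p = 0.390). Those arrays had the lowest Gsk3b values of the group, so the estimate had to rise.

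Csnk1a1 encodes casein kinase 1 alpha, which phosphorylates beta-catenin first. Its WT values were 9.54, 9.45, 9.50, 9.43 and 9.46, and its LKB1-deficient values 9.44, 9.54, 9.30, 9.22 and 9.35. Arrays 3, 4 and 5 were below all WT arrays, and arrays 1 and 2 were within their range. The difference was -0.11 (SE 0.085, 95% confidence interval -0.29 to 0.077, adjusted p = 0.626), and without arrays 1, 4 and 5 it was -0.057 (adjusted p = 0.871).

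Among the nuclear partners, Lef1 was on average 1.20-fold higher in LKB1-deficient samples, which did not pass the test over all genes. It encodes LEF-1, the DNA-binding partner of beta-catenin. Its log2 signal (probe set 17402662) was 10.70, 10.80, 10.67, 10.75 and 10.83 on WT arrays 1 to 5. It was 11.19, 11.04, 11.10, 10.92 and 10.81 on LKB1-deficient arrays 1 to 5. Arrays 1 to 4 were above all WT arrays, and array 5 was below the highest WT array, so the groups overlapped through that array. The means were 10.75 ± 0.068 (SD, n = 5) and 11.01 ± 0.15 (SD, n = 5). The difference was 0.26 (SE 0.092, 95% confidence interval 0.060 to 0.46, unadjusted p = 0.0150, adjusted p = 0.218), so the interval of this gene taken alone did not reach 0.

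The Lef1 estimate was larger in set 1 than in set 2. Within that set it was 0.39 (adjusted p = 0.348) and within set 2 only 0.071 (adjusted p = 0.883), and the difference between the sets was not tested. It was positive in all 10 fits that left out 1 array, from 0.22 to 0.31, with adjusted p from 0.154 to 0.396. The naive conventional CD4 T cell mean, which was high on LKB1-deficient array 1 where Lef1 was highest, was at most 9.22 on arrays 2 to 5 against up to 9.17 in WT. Of the 9 measured markers of that list, 7 had a positive difference, with a median of 0.23. At an unadjusted p under 0.05 in the limma fit there were 4, of which 3 were positive and 1 negative. This is 44.4% of the measured markers, against 14.0% of all genes. The part of naive T cell RNA in the Lef1 result was not tested. Leaving out arrays 1, 4 and 5 of the LKB1-deficient group gave a Lef1 difference of 0.32 (adjusted p = 0.178). A fit that held the marker means of macrophages and B cells as covariates gave 0.33 (adjusted p = 0.165).

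Bcl9, the adaptor that joins beta-catenin to the transcription machinery through Pygopus proteins, had the most negative estimate of the 8. It was at 7.05, 7.12, 7.24, 7.01 and 7.18 on WT arrays, and at 6.56, 6.90, 7.24, 6.86 and 7.06 on LKB1-deficient arrays. Arrays 1, 2 and 4 were below all WT arrays, and arrays 3 and 5 were within their range. The difference was -0.20 (SE 0.12, 95% confidence interval -0.46 to 0.066, adjusted p = 0.513). It was -0.10 without array 1 and -0.049 without arrays 1, 4 and 5 (adjusted p = 0.689 and 0.911).

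**Figure D2:**
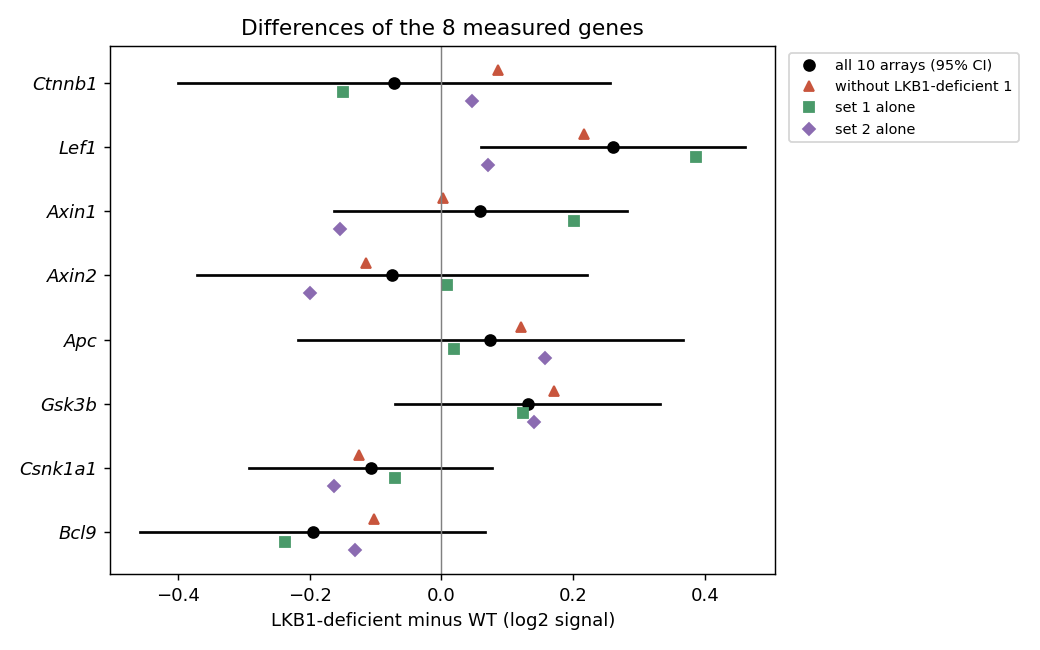
Difference between LKB1-deficient and WT samples in log2 signal for the 8 measured core genes, from all 10 arrays (black point, line for the 95% confidence interval), without LKB1-deficient array 1 (triangle), and within set 1 (square) or set 2 (diamond). The interval lies wholly to 1 side of 0 for Lef1 and for no other gene; Ctnnb1 changes side without array 1.

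Most core genes were more spread among LKB1-deficient samples than among WT samples. The SD was larger there for 7 of the 8, where 68.8% of all genes had a larger SD in that group, so a wider spread was common over the whole array.

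Genes with the most similar profile over the 10 arrays were found by Pearson's r among 19202 genes with regular names. For Ctnnb1 they were Wdr91 (r = 0.966), Gxylt1 (0.962) and Vps11 (0.961). Without the 2 arrays farthest from the Ctnnb1 median, LKB1-deficient 1 and WT 1, r was 0.814, 0.693 and 0.753, so much of the likeness rested on those arrays. For Lef1 they were Csrnp3 (r = 0.958), Car9 (0.953) and Olfr919 (0.949), with r of 0.922, 0.880 and 0.874 without LKB1-deficient arrays 1 and 3. For Axin2 they were Slc4a1ap (r = 0.909), Slc25a31 (0.904) and Gtf3c1 (0.881), with r of 0.795, 0.806 and 0.571 without LKB1-deficient arrays 3 and 5. These are the highest of many correlations and have no test. Of the 9 genes, Olfr919 rose (0.61, adjusted p = 0.0455) and the other 8 did not pass. That call held without LKB1-deficient array 1 or 5 and ended without any of the other 8 arrays (adjusted p up to 0.130).

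In 8 lists of other pathway genes around the core, 157 of 165 genes were measured, of which 1 was called higher and 1 lower, together 1.27% against 1.06% of all genes. At an unadjusted p under 0.05 there were 26 (16.6% against 14.0%), and 11 (7.01% against 4.71%) had groups that did not overlap. The median difference was 0.023.

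At the cell surface, none of the 19 measured Wnt ligand genes passed, with a median difference of 0.074 and an unadjusted p under 0.05 for 2. Wnt2 (-0.28, adjusted p = 0.253), Wnt2b (0.30, 0.262) and Wnt6 (-0.29, 0.475) had the smallest p. Without LKB1-deficient arrays 1, 4 and 5 Wnt2 was at -0.10 (adjusted p = 0.738) and Wnt2b at 0.56 (adjusted p = 0.0256). With the marker means as covariates Wnt2b was at 0.54 (adjusted p = 0.0402). Arrays 1, 4 and 5 had the 3 lowest Wnt2b values of the group, so their removal had to raise its difference. Mean signals of 13 of the 19 were below the array median, and without detection calls such low values may be background. Of the 16 receptor and co-receptor genes 0 passed and 1 had an unadjusted p under 0.05. Fzd5, a Frizzled receptor, was at -0.28 (adjusted p = 0.274), Fzd6 at -0.16 (0.540) and the co-receptor gene Lrp5 at 0.30 (0.544), and 11 of the 16 were below the array median. On arrays 4 and 5 of the LKB1-deficient group Lrp5 reached 6.78 and 6.62, where WT arrays had 5.70 to 5.99, and within set 1 its difference was -0.00056. Lrp5 was at 0.073 and Fzd5 at -0.18 without arrays 1, 4 and 5.

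Among the 24 genes for secretion, agonists and extracellular inhibitors 0 passed, with 4 at an unadjusted p under 0.05. Rnf43, a ubiquitin ligase that removes Frizzled receptors and is itself a pathway target, came nearest. It was at 6.37, 6.17, 6.78, 6.79 and 6.73 on WT arrays and, in the LKB1-deficient group, 6.16, 5.71, 5.76, 6.22 and 5.88. Of the LKB1-deficient arrays 4 were below all WT arrays, and array 4 lay just above the lowest WT array. The difference was -0.62 (SE 0.15, adjusted p = 0.0722), or 1.54-fold lower. It passed in 1 of the 10 fits that left out 1 array, at -0.68 (adjusted p = 0.0467) without LKB1-deficient array 1. It was -0.84 (adjusted p = 0.0484) without arrays 1, 4 and 5. Arrays 1, 4 and 5 had the 3 highest values of the group, so these fits had to give a larger decrease. On all 10 arrays Rnf43 passed with array medians set equal and with array weights. With the macrophage and B cell marker means as covariates it passed at -0.87 (adjusted p = 0.0295). It did not pass within set 1 (-0.57, adjusted p = 0.378) or set 2 (-0.71, adjusted p = 0.120). Wls, which carries Wnt proteins to the surface, was at -0.61 (adjusted p = 0.129), with all LKB1-deficient arrays (6.57 to 7.64) below all WT arrays (7.67 to 8.02), and at -0.28 without arrays 1, 4 and 5. Arrays 1, 4 and 5 had the lowest Wls values of the group, so its decrease had to shrink without them. Rspo1 was at 0.27 (adjusted p = 0.271).

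In the cytoplasm, 0 of 34 measured regulators passed, 3 had an unadjusted p under 0.05, and the median was -0.018. Btrc, the ubiquitin ligase subunit that recognises phosphorylated beta-catenin, was at -0.44 (adjusted p = 0.183), and it was low on LKB1-deficient arrays 1 (6.69), 4 (6.96) and 5 (6.89). Arrays 2 (7.48) and 3 (7.36) were near the WT arrays (7.38 to 7.69). Without arrays 1, 4 and 5 it was at -0.093. Ppp2cb, a phosphatase subunit, was at -0.36 (adjusted p = 0.241) and at -0.50 (adjusted p = 0.0111) without LKB1-deficient array 1, which was the highest of its group at 9.19, and a larger decrease had to follow from its removal. Cul1, a ubiquitin ligase scaffold, was at -0.21 (adjusted p = 0.350), and at -0.091 without arrays 1, 4 and 5. For Btrc and Cul1 those arrays had the lowest values of the group, so their removal had to shrink the decrease.

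In the nucleus, 0 of 25 measured partners passed, 5 had an unadjusted p under 0.05, and the median was -0.11. Ruvbl1 (-0.48, adjusted p = 0.111), a chromatin ATPase, Hdac2 (-0.38, 0.139), a histone deacetylase, and Xpo1 (-0.23, 0.190), a nuclear exporter, had the smallest p. Of the 7 adherens junction genes 0 passed and 0 had an unadjusted p under 0.05. Jup, which encodes plakoglobin, a close relative of beta-catenin, was at 5.33 to 5.55 in WT. LKB1-deficient arrays 4 (6.57) and 5 (6.99) were above that range, and the remaining ones (5.38 to 5.50) lay inside it. Its difference was 0.54 (adjusted p = 0.425), Ctnnd1 was at 0.31 (0.681) and Cdh2 at 0.092 (0.731). Jup was high on the same arrays as the macrophage markers and was at 0.029 without arrays 1, 4 and 5. Ctnnd1 then turned to -0.25 (adjusted p = 0.688), and Cdh2 was at 0.20 (adjusted p = 0.467).

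**Figure D3:**
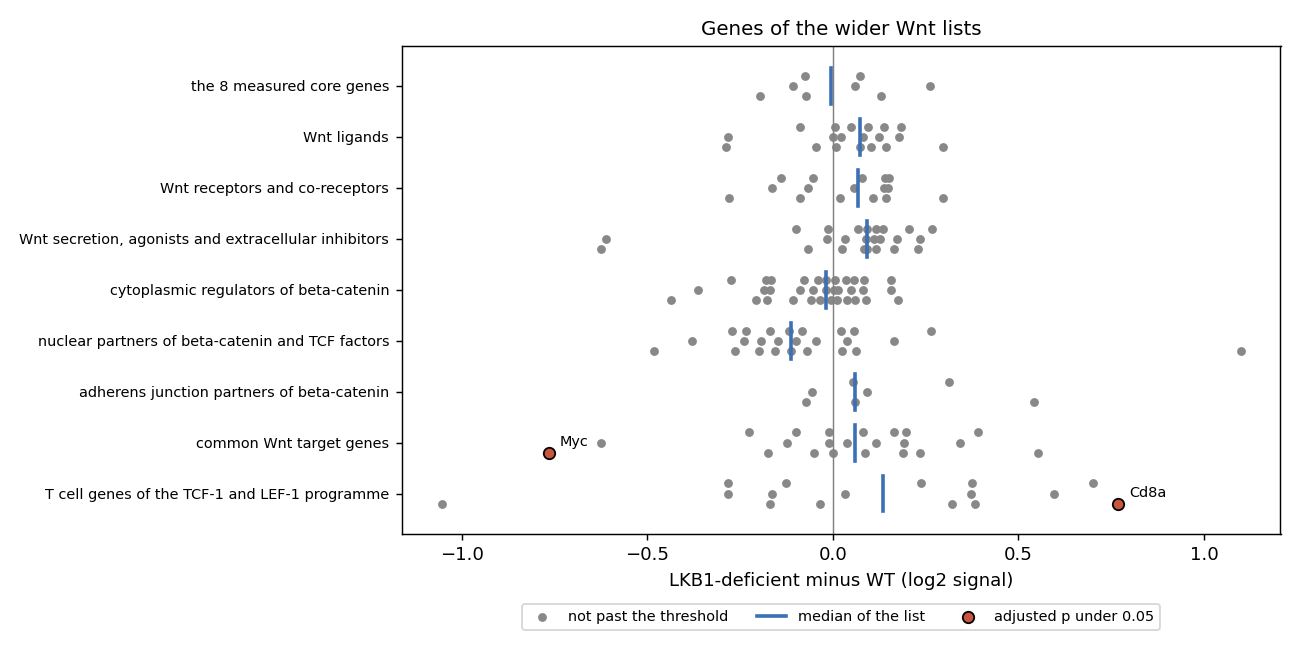
Difference between LKB1-deficient and WT samples in log2 signal for every measured gene of the core and of the 8 wider lists (1 point per gene; a gene in 2 lists appears in both; blue bar, list median). The genes past the adjusted threshold are Myc, which was lower, and Cd8a, which was higher; the grey point far to the right among nuclear partners is Tcf7l2 at 1.10.

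Of 22 measured common Wnt target genes, 0 rose and 1 fell, while 21 missed the threshold, with a median of 0.059. The 1 called is 4.55% of the list, where 1.06% of all genes were called. An unadjusted p under 0.05 was seen for 4 (2 positive and 2 negative), or 18.2% against 14.0% of all genes. The one that fell was Myc, a transcription factor that drives growth. It was at 9.60, 9.68, 9.57, 9.61 and 9.47 on WT arrays and, in the LKB1-deficient group, 8.21, 9.08, 9.14, 8.92 and 8.75, with no overlap. It was 1.698-fold lower (-0.76, SE 0.15, adjusted p = 0.0398). The call held in 3 of the 10 fits that left out 1 array, those without LKB1-deficient array 1, 2 or 3. It ended without any WT array and without LKB1-deficient array 4 or 5 (adjusted p up to 0.109). Without arrays 1, 4 and 5 the difference was -0.47 (adjusted p = 0.0557). Those arrays had the lowest Myc values of the group, so their removal had to shrink the decrease. Dkk1, a secreted inhibitor that is also a target, was at 0.24 (adjusted p = 0.310). The list's second smallest p was that of Rnf43, given above.

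Of 16 measured T cell genes tied to the TCF-1 and LEF-1 programme, 0 fell and 1 rose, while 15 missed the threshold, with a median of 0.13. The 1 called is 6.25% of the list, where 1.06% of all genes were called. At an unadjusted p under 0.05 there were 9 (7 positive and 2 negative), or 56.3% of the list against 14.0% of all genes. The list mean reached 8.54 to 8.64 in WT and 8.65 to 8.76 in the LKB1-deficient group. The groups missed overlap only narrowly, with WT array 5 at 8.642 and LKB1-deficient array 1 at 8.651. Array medians were also higher in the LKB1-deficient group (4.88 to 4.94 against 4.83 to 4.86). The list was not tested as a set. Ccr7, Il7r and Satb1 of this list are also among the naive conventional CD4 T cell markers, and Cd8a and Eomes among the CD8 T cell markers. The part of other cells' RNA in these counts and list means was not tested. Cd8a, the CD8 coreceptor chain, rose 1.705-fold (0.77, SE 0.16, adjusted p = 0.0423). It was at 5.36, 5.33, 5.47, 5.12 and 5.80 on WT arrays and, in the LKB1-deficient group, 6.70, 6.10, 5.90, 6.16 and 6.06. The call held without WT array 5 or LKB1-deficient array 1 or 3 and ended without any of the other 7 arrays (adjusted p up to 0.113). Leaving out LKB1-deficient arrays 1, 4 and 5 gave 0.58 (adjusted p = 0.135). The mean of 5 CD8 T cell markers, Cd8a included, was 5.99 to 6.47 on LKB1-deficient and 5.68 to 5.90 on WT arrays. The NK cell markers moved the same way, with 9 of 9 differences positive, a median of 0.61 and Klrd1 called. The part of CD8 T and NK cell RNA in the Cd8a result was not tested. Id3, an inhibitor of E proteins, was at 9.16, 9.36, 9.36, 9.26 and 9.39 on WT arrays and, in the LKB1-deficient group, 7.43, 8.45, 9.05, 8.02 and 8.30. All LKB1-deficient arrays were below all WT arrays, and at -1.05 its adjusted p of 0.05004 was just over the threshold. It passed in 2 of the 10 fits that left out 1 array, at -0.85 (adjusted p = 0.0288) without LKB1-deficient array 1 and -1.25 (0.0153) without array 3. It also passed within set 2 (-1.17, adjusted p = 0.0169), without the dimmest 40% of genes, with array medians set equal, with a trended robust prior and with array weights. Without arrays 1, 4 and 5 it was at -0.55 (adjusted p = 0.129). Those arrays had the lowest Id3 values of the group, so their removal had to shrink the decrease. Ccr7, a lymph node homing receptor, was at 0.37 (adjusted p = 0.107).

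The other TCF family genes on the array, Tcf7l1 and Tcf7l2, are described because Tcf7 itself was not analysed, and they were singled out after their values were seen. Both encode DNA-binding partners of beta-catenin. Tcf7l2 was at 6.12, 6.14, 5.89, 5.73 and 6.02 on WT arrays. The LKB1-deficient values of Tcf7l2 were 5.75, 6.97, 6.53, 8.07 and 8.06. Arrays 2 to 5 were above all WT arrays, 4 and 5 by far the most, and array 1 was at the low end of the WT range. The difference was 1.10 (SE 0.37, adjusted p = 0.196), and 1.43 (adjusted p = 0.0287) without array 1, the lowest of the group, whose removal had to enlarge it. The macrophage marker mean was likewise highest on arrays 4 and 5. On arrays 2 and 3 that mean was within the WT range, and with these alone against WT Tcf7l2 was at 0.77 (adjusted p = 0.0415), a choice of arrays made after seeing the data. A fit with the macrophage and B cell marker means as covariates gave 0.71 (adjusted p = 0.0967). The part of macrophage RNA in the Tcf7l2 result was not tested. Within set 1 it was at 0.37 (adjusted p = 0.690) and within set 2 at 2.19 (adjusted p = 0.00114). Tcf7l1 was at 5.31 to 5.67 in WT and 5.47 to 5.77 in LKB1-deficient samples, a difference of 0.16 (adjusted p = 0.510).

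**Figure D4:**
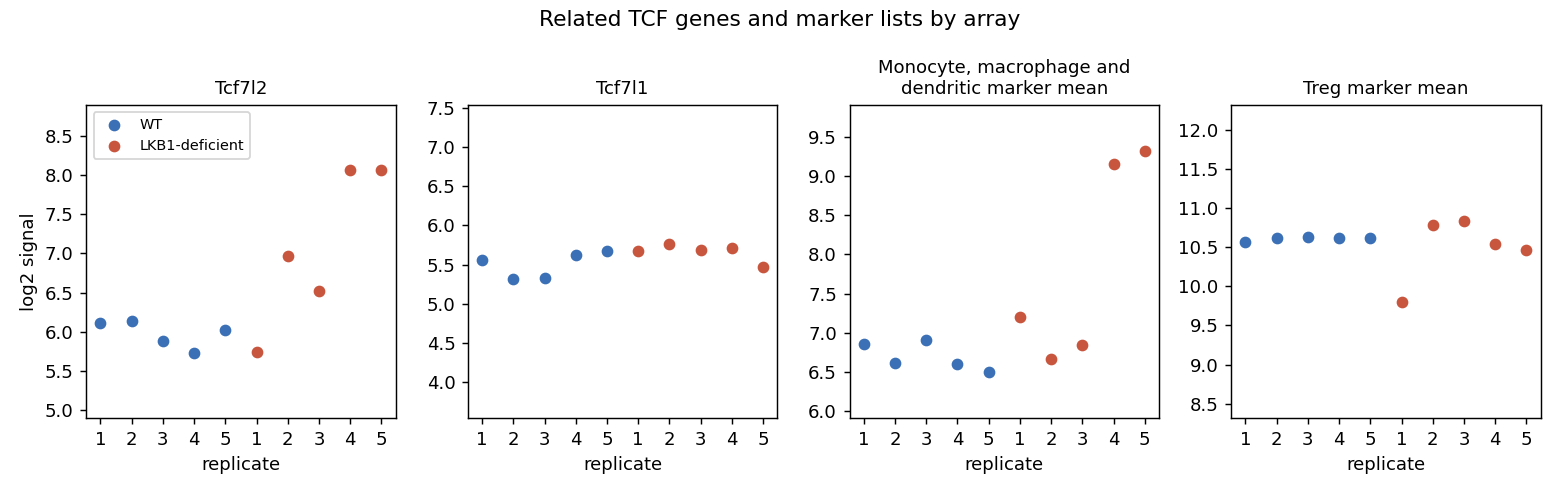
Log2 signal of Tcf7l2 and Tcf7l1, and the means of 15 monocyte, macrophage and dendritic markers and of 9 Treg markers, on each array (x axis, replicate number; blue, WT; red, LKB1-deficient; panels span the same height). Tcf7l2 and the macrophage marker mean are both highest on LKB1-deficient arrays 4 and 5, while on arrays 2 and 3 Tcf7l2 is above all WT arrays and the macrophage marker mean is not.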

How the data were processed

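The deposited table holds log2 signals of 41345 probe sets on 10 arrays. Per the submitters' processing notes, the authors used RMA and Partek 6.6 to make these log2 values, with order and settings not given in the sources used here. Per the labels' protocols, a few nanograms of RNA were amplified, which can distort levels. The table has no detection calls. Probe sets naming exactly 1 gene (23521, against 1814 with several names and 16010 with none) were kept, with the highest-mean probe set per gene, and dim genes were kept. All 8 core genes matched RefSeq by Entrez identifier. LKB1-deficient and WT arrays were compared in limma 3.58.1 (R 4.3.3; lmFit, eBayes, no covariate), adjusted over 22180 genes, with groups from sample titles. The code was tested on simulated data. The core genes and lists were chosen with earlier results of these data known. Named besides the core genes were Stk11 and the 3 genes with the smallest p of each wider list, and for Ctnnb1, Lef1 and Axin2 the 3 with the highest r. Of each marker list the gene with the largest difference was Izumo1r (Treg, -0.70), Igfbp4 (naive CD4 T, -0.64), Cd8a (CD8 T, 0.77), Spic (macrophage, 1.63), Jchain (B and plasma, 1.77), Klrd1 (NK, 1.53), S100a8 (neutrophil, 0.98), Ppbp (erythroid and platelet, 1.28) and Pdgfra (stromal, -0.34). Igfbp4 and Pdgfra ran against their lists, where 7 of 9 and 6 of 10 differences were positive. Without LKB1-deficient arrays 1, 4 and 5, Spic was at 0.30, Jchain at 0.50, Ppbp at 0.18 and S100a8 at -0.52. For each of these genes those arrays had the 3 highest values of the group, so their removal had to lower the difference. None of these genes passed with all arrays or without those arrays. The alternatives were other probe set, filter, scaling, variance and weighting choices, blocks, and arrays left out. The number of arrays limits the precision.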

Additional observations from a re-analysis of the deposited data

Results flagged for a closer look

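In 84 groups of 5 arrays (42 genes named in the text, 2 groups each), 3 had an array set apart from the other 4 by Dixon's criterion, where chance gives about 1 in 20. Ctnnb1 was at 7.61 on LKB1-deficient array 1, with the other 4 arrays of the group at 8.28 to 8.46. Ppp2cb was at 9.19 on the same array, above the other 4 at 8.38 to 8.59. Wnt6 was at 3.97 on LKB1-deficient array 5, below the others at 4.24 to 4.30, all under the array medians.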

How the results depend on the processing

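None of the 8 core genes passed in any of the fits, 186 alternative values in all, with adjusted p from 0.0970 (Lef1, trended robust prior) to 0.996. Of these values, 178 kept their sign and 8 turned. Many could not turn, since the dim gene filter, the variance choices and both blocks left every estimate as it was. The mean of probe sets did the same for genes with 1 probe set, and 1 of the Axin2 values was the main one. The count of 178 is therefore no measure of stability. Ctnnb1 went from -0.071 to 0.018 with array weights, 0.046 in set 2 alone and 0.053 without LKB1-deficient arrays 1, 4 and 5, and ranged from -0.13 to 0.085 with 1 array left out. Axin1 was -0.15 in set 2 alone. Axin2 was 0.0083 in set 1 alone and ranged from -0.15 to 0.018 with 1 array left out, and Apc from -0.028 to 0.16. The causes of these turns were not tested. The counts of wider Wnt genes called, 1 higher and 1 lower, rest on few genes. The higher count was 0 with a second quantile normalization, no moderation, the replicate block, set 1 alone or an adjusted p under 0.01, 2 with a trended robust prior, and 3 with array weights, in set 2 alone, with the marker covariates or without arrays 1, 4 and 5. The lower count was 0 with no moderation, the replicate block, set 1 alone or an adjusted p under 0.01, 2 without the dimmest 40% of genes, with a trended robust prior, with the covariates or without arrays 1, 4 and 5, 3 with array medians set equal or an adjusted p under 0.10, and 4 with array weights. With 1 array left out the counts were 0 to 3 and 0 to 4. Over all genes, 52 were called higher (0 to 423 under the alternatives) and 184 lower (0 to 415). With array medians set equal the split was 52 and 363. The replicate numbers showed no pairing in the values: same-numbered arrays correlated in their deviations at -0.079 to 0.10, and 1 of 5 WT arrays correlated best with its own number. This check could miss a pairing, since LKB1-deficient arrays 1, 4 and 5 stood apart from the rest. It does not settle whether same-numbered samples shared an animal. With the replicate block, Lef1 had an adjusted p of 0.353 and all genes 14 higher and 36 lower. The covariate fit and the fit without arrays 1, 4 and 5 were chosen after seeing the data.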
